A study of Mus musculus with 96 samples.

Results

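The miR-15/16/195 family was followed in 4 cell types of the infarcted mouse heart. It was taken as 6 mature microRNAs (miRNAs), mmu-miR-15a-5p, mmu-miR-15b-5p, mmu-miR-15b-3p, mmu-miR-16-5p, mmu-miR-195a-5p and mmu-miR-497a-5p, picked by name among the 1978 mature miRNAs counted in every library. Libraries were made from haematopoietic cells (HCs), fibroblasts (FBs), endothelial cells (ECs) and cardiomyocytes (CMs) of male C57Bl/6J mice aged 12 to 14 weeks, with no further allele or agent. Hearts were taken at 1, 3, 7, 14 and 28 days (D1 to D28) after the left anterior descending artery had been tied off for good, and D0 stands for mice that were not operated on, so the controls did not undergo a sham operation. Each of the 24 groups held 4 small RNA libraries, and each library was a pool of 3 mice, or of 2 where material was lacking. CMs were collected by centrifugation, HCs with anti-CD45 beads, ECs with anti-CD144 beads and FBs by plating, so each population is an enrichment from digested tissue. All 6 miRNAs had enough counts to be tested in all 4 cell types.

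The miR-15/16 family is best known as a brake on the cell cycle. Its members bind messenger RNAs through a shared seed, the bases near the 5′ end that pair with the target, and known targets include cyclins D1 and E1, the kinase Cdk6 and the checkpoint kinase Chek1. In the heart the family is known for its part in the withdrawal of cardiomyocytes from the cell cycle after birth, with miR-195 as the member studied most. The miRNAs are made in pairs from clustered hairpins, and either arm of a hairpin precursor, named 5p or 3p, can become the mature miRNA.

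The sequences are shown because 5 of the 6 members carry 1 and the same seed and differ outside it, while mmu-miR-15b-3p, the other arm of the miR-15b hairpin, has a seed of its own. Capitals mark bases 2 to 8. Sequences are from RefSeq on GRCm38.p6.
mmu-miR-15a-5p: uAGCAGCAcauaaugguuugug
mmu-miR-15b-5p: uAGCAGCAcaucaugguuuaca
mmu-miR-16-5p: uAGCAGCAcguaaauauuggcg
mmu-miR-195a-5p: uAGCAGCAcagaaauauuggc
mmu-miR-497a-5p: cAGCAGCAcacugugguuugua
mmu-miR-15b-3p: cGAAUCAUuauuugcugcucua

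The members came from 3 clusters. Mir15b and Mir16-2 lie 66 bases apart in an intron of Smc4, a condensin subunit gene, with mature miR-15b-5p at chr3:69009775-69009796, miR-15b-3p at chr3:69009813-69009834 and miR-16-5p at chr3:69009918-69009939, all on the plus strand. Mir15a and Mir16-1 lie 54 bases apart within the non-coding Dleu2 gene on the minus strand, with miR-15a-5p at chr14:61632075-61632096 and a second copy of miR-16-5p at chr14:61631936-61631957. Mir15a is intronic, and Mir16-1 overlaps an exon of some Dleu2 transcript. Mir497 and Mir195a lie 241 bases apart on the plus strand, with miR-497a-5p at chr11:70234730-70234751 and miR-195a-5p at chr11:70235062-70235082, and no host gene is annotated there. Reads of miR-16-5p therefore cannot be assigned to 1 of its 2 loci. MiR-16-5p and miR-195a-5p are identical at 19 of 21 bases, so reads could be shared between them where mismatches were allowed. Of 1679 listed mature miRNAs with a reference sequence, 10 share bases 2 to 8 with miR-16-5p, the 5 members among them.

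Counts assigned to mature miRNAs ran from 18286 to 65588543 per library. The smallest was HC D0 replicate 3, far below all others, of which the lowest was an EC library with 525651. Marker sums, on a scale set within each cell type, had their highest group medians in the labelled type. Single libraries overlapped in the cardiomyocyte sum, which reached 176500 in ECs at D3 and was as low as 158300 in CMs at D14. The summed level of 3 fibroblast miRNAs (miR-199a-3p, miR-199a-5p and miR-214-3p) was 44810 to 91180 in FBs and at most 20430 elsewhere, and that of 4 leukocyte miRNAs was 7359 to 23380 in HCs and at most 4151 elsewhere. HC libraries also held 26340 to 143600 of the 4 cardiomyocyte miRNAs and 12150 to 122100 of the 2 endothelial ones. Levels are given as CPM, counts relative to the library total, scaled by the trimmed mean of M values (TMM), a scaling that sets the bulk of the miRNAs equal between libraries, so that scaled values can exceed the raw ones. The choice matters in CMs, because miR-1a-3p took 60.2% to 70.7% of their counts at D0 and 29.2% to 39.9% at D14. Against D0, the median of all miRNAs in CMs moved by 0.20 to 0.44 on the log2 scale with TMM, and by 1.42 to 2.99 with the library total as the only scaling. In HCs the same medians were -0.08 to 0.18 and 0.34 to 0.59. In FBs they were -0.07 to 0.06 and -0.10 to 0.38, and in ECs -0.01 to 0.12 and -0.03 to 0.36. Members are called changed when the quasi-likelihood test of edgeR, adjusted over all miRNAs by Benjamini and Hochberg, gave a value under 0.05, and ± stands for the SD. Replicates are pools, so p-values measure the spread between pools.

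Except for miR-15a-5p, whose means were close in HCs and CMs, the members were highest either in HCs or in FBs. On 1 TMM scale over all 96 libraries, miR-16-5p was the most abundant member throughout, at 1780 ± 215 CPM in HCs, 1098 ± 443 in ECs, 1075 ± 462 in CMs and 849 ± 220 in FBs (n = 24 libraries each). Its partner miR-15b-5p was at 164 in HCs, 53.0 in FBs, 47.4 in ECs and 34.3 in CMs, and the opposite arm miR-15b-3p followed the same order at 42.7, 18.2, 12.2 and 9.75. MiR-15a-5p was at 92.2 in HCs, 88.1 in CMs, 44.9 in ECs and 29.6 in FBs. Its HC mean includes 380.7 in HC D0 replicate 3, which rests on 17 counts. The medians were 68.8 in HCs and 65.7 in CMs. These values mix unlike days. CM libraries held 2.33 to 20.4 at D0 and 140 to 208 at D7, and HC libraries 40.6 to 380.7 and 55 to 83. The miR-497a/195a cluster ran the other way. MiR-195a-5p was at 581 in FBs, 280 in ECs, 84.1 in CMs and 64.4 in HCs, and miR-497a-5p at 275, 100, 80.6 and 33.6 in the same order.

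Over the 6 pairs of cell types, 33 of 36 member comparisons of the mean over days passed the test. The background was high, with 69.4% of the 712 miRNAs called between CMs and ECs, 75.7% between CMs and FBs, 77.7% between CMs and HCs, 71.8% between ECs and FBs, 77.7% between ECs and HCs and 85.7% between FBs and HCs. FBs exceeded HCs by 3.24 (log2, SE 0.11) in miR-195a-5p and by 3.19 in miR-497a-5p, and fell below HCs by -1.67 in miR-15b-5p, -1.27 in miR-15b-3p, -1.55 in miR-15a-5p and -1.10 in miR-16-5p. Neighbours that did not pass were CMs and ECs in miR-16-5p (-0.06, adjusted p = 0.73), ECs and FBs in miR-15b-5p (-0.10, adjusted p = 0.52) and CMs and HCs in miR-15a-5p (-0.46, adjusted p = 0.057). The last of these passed with DESeq2 (-0.94, adjusted p = 0.0001) and without a filter on low counts (-0.87, adjusted p = 8.3e-11). It also passed in edgeR with a replicate block (adjusted p = 0.048) and without replicate 1, 3 or 4 (0.032, 0.011 and 0.0074). Several of the smaller differences that passed were lost under other settings, among them miR-15a-5p between CMs and ECs (adjusted p = 0.1 with DESeq2), miR-16-5p between CMs and FBs (0.56 with DESeq2) and miR-195a-5p between CMs and HCs (0.14 with DESeq2). The order of CMs among the other types depended on the scaling. With library totals alone, miR-15a-5p in CMs stood at -0.86 against ECs, in place of 0.51, and at -0.43 against FBs, in place of 1.09, and the second of these did not pass (adjusted p = 0.1). On that scaling miR-15a-5p in CMs was also lower than in HCs (-2.62), miR-16-5p lower than in ECs (-1.48 in place of -0.06) and FBs (-1.30 in place of 0.25), and miR-195a-5p and miR-497a-5p lower than in HCs (-1.74 and -1.14 in place of 0.43 and 0.96). The median of all miRNAs moved by -1.36, -1.62 and -2.27 between CMs and ECs, FBs and HCs on that scaling. Input RNA and PCR cycles were set per cell type, so they cannot be told apart from it.

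**Figure D1:**
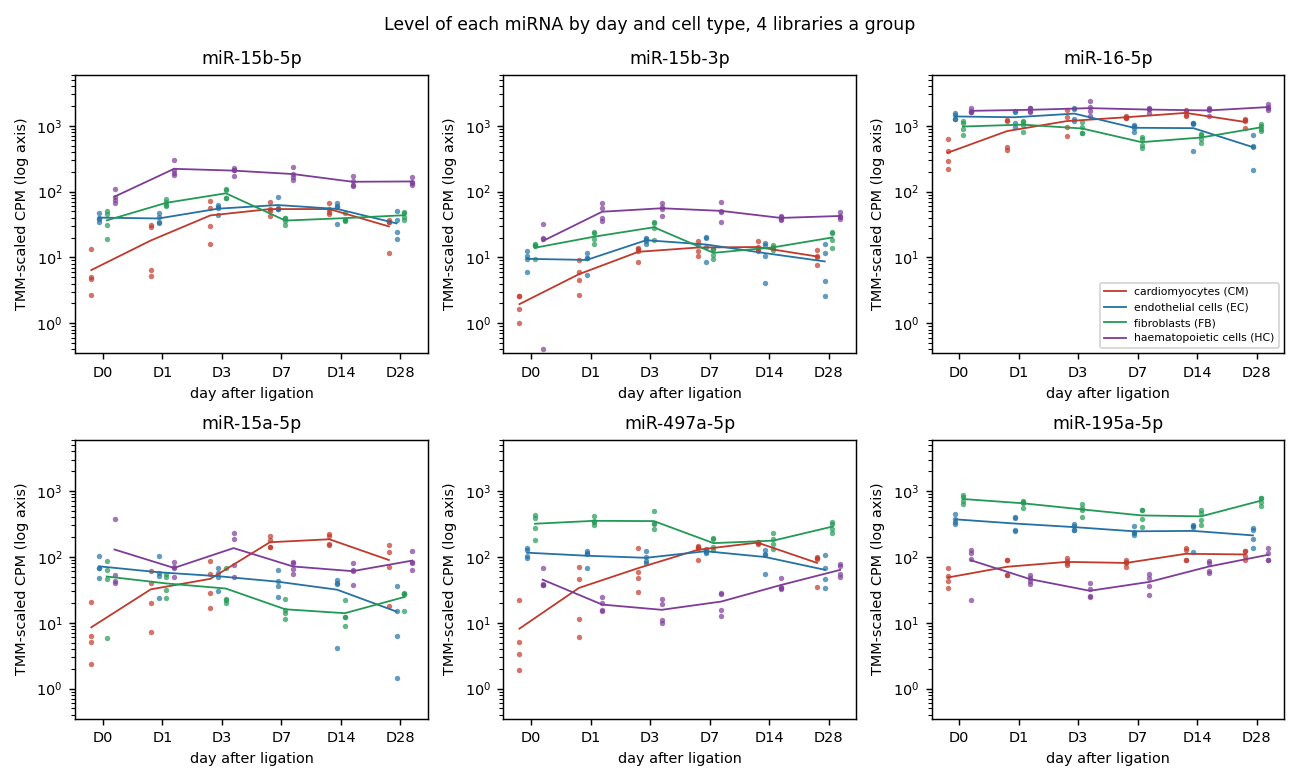
Level of each member by day, in CPM on 1 TMM scale over the 96 libraries (log axis), with 1 point per library, 4 per group, and lines through the group means. MiR-195a-5p and miR-497a-5p lie highest in FBs and miR-15b-5p highest in HCs, and the CM lines of miR-15a-5p and miR-497a-5p climb from D0 to D14. The HC D0 library with 0 counts of miR-15b-3p is drawn at the foot of its axis.

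The make-up of the family, taken as the share of each seed-sharing 5p member in their summed counts, does not depend on scaling between libraries. MiR-16-5p held 83.5% ± 2.4 of it in HCs, 80.4% ± 4.4 in CMs, 68.3% ± 5.9 in ECs and 47.7% ± 2.5 in FBs. In FBs miR-195a-5p held 32.6% ± 3.8 and miR-497a-5p 15.1% ± 2.7, so the chr11 cluster and miR-16-5p took like shares there. In HCs the same 2 miRNAs held 3.0% ± 1.6 and 1.6% ± 0.9. MiR-15b-5p held 7.7% ± 2.5 in HCs and 2.2% to 3.3% elsewhere. Within CMs the share of miR-195a-5p was 11.1% ± 1.7 at D0 and 4.6% ± 0.4 at D7, while miR-497a-5p went from 1.5% ± 1.0 to 7.2% ± 1.3 and miR-15a-5p from 1.6% ± 0.8 to 9.4% ± 1.8. In ECs miR-195a-5p stood at 18.7% ± 1.3 at D0 and at 27.8% ± 5.0 at D28. The 5 miRNAs together made up 0.409% of mature counts in HCs, 0.217% in FBs, 0.174% in ECs and 0.0727% in CMs, on average over 24 libraries. Sequences differ in how well they are ligated and amplified, so these are shares of reads.

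**Figure D2:**
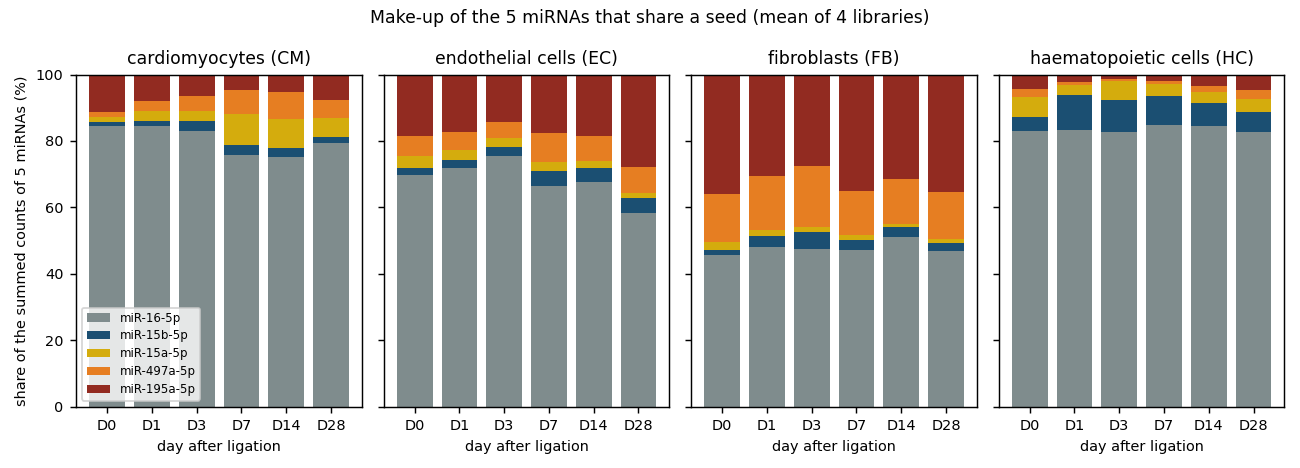
Share of each of the 5 seed-sharing members in their summed counts (%), mean of 4 libraries per day, for each cell type. MiR-16-5p fills most of the bar in HCs (83.5% over all days), while miR-195a-5p and miR-497a-5p take 32.6% and 15.1% in FBs.

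In HCs, the miR-15b hairpin rose and the miR-497a/195a cluster fell in the first days after infarction. MiR-15b-5p was at 189, 149, 151 and 153 CPM in the D0 libraries and at 429, 368, 456 and 623 at D1 (levels by day are on the TMM scale of the cell type). No D1 library overlapped with D0. The change was 1.53 (log2, SE 0.21, adjusted p = 1.5e-06), a 2.88-fold rise, and on the later days it was 1.37, 1.09, 0.60 and 0.55, the last of which did not pass (adjusted p = 0.052). MiR-15b-3p rose alongside, by 1.30 (D1), 1.41 (D3), 1.18 (D7), 0.72 (D14) and 0.75 (D28). MiR-195a-5p was at 160, 225, 50.4 and 232 CPM at D0 and at 55.5, 71.1, 67.9 and 49.9 at D3, where 50.4 stands for a single count in the shallow replicate 3. The other D0 libraries lay above all of D3. It fell by 1.02 at D1, by 1.69 at D3 (SE 0.22, adjusted p = 4.4e-07), by 1.39 at D7 and by 0.66 at D14. MiR-497a-5p went from 64.8, 73.6, 151 and 70.4 to 24.1, 34.0, 20.8 and 46.6 at D3, and fell by 0.84, 1.20 and 0.93 at D1, D3 and D7, with no overlap on any of these days. In D0 replicate 3 the 151 of miR-497a-5p and that of miR-15b-5p each stand for 3 counts.

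Between D3 and D28 the pattern in HCs turned round. MiR-195a-5p rose by 1.56 and miR-497a-5p by 1.77 from D3 to D28, while miR-15b-5p fell by 0.82 and miR-15b-3p by 0.66. These are 4 of 6 members, against 55.1% of miRNAs. MiR-16-5p, the most abundant member, lay between 2601 and 4234 CPM in all 24 libraries and passed no test (all days, adjusted p = 0.21), although it did with library totals as the scaling (adjusted p = 0.005). At D1 it also passed with DESeq2 (0.38, adjusted p = 0.03). Of 31 settings run, 6 called it at D1 and 6 at D3. MiR-15a-5p rose by 1.25 at D3 (adjusted p = 0.035). Its D0 levels were 70.8, 83.9 and 97.8 in 3 libraries and 857 in replicate 3, where it rests on 17 counts. Without that library the rise was 1.66 (adjusted p = 0.00044), and without replicate 1, 2 or 4 of D0 it was 0.93 to 1.11 and did not pass. DESeq2 gave 0.60 (adjusted p = 0.42).

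Over all days 4 of 6 members changed in HCs (background 73.5%), and 4, 5, 4, 3 and 1 were called at D1, D3, D7, D14 and D28 (backgrounds 54.3%, 59.0%, 49.5%, 28.1% and 24%). The members' share was thus near that of all miRNAs. Without HC D0 replicate 3 the D3 changes were 1.37 for miR-15b-5p, -1.75 for miR-195a-5p and -1.16 for miR-497a-5p. The calls at D14 and D28 and that of miR-15a-5p were lost when 1 of several libraries was left out (miR-15b-5p at D14, adjusted p = 0.12 without HC D14 replicate 4, and miR-195a-5p, adjusted p = 0.13 without HC D0 replicate 4), and the other 12 of 17 held without any 1 library. MiR-15b-5p at D14 was lost without D0 replicates 2 or 4, D1 replicate 3, D7 replicate 4, D14 replicates 2 or 4 or D28 replicate 2, miR-195a-5p at D14 without D0 replicates 2 or 4, D3 replicates 1, 2 or 4, D7 replicate 3 or D14 replicates 2 or 3, and miR-15b-3p at D14 and D28 without libraries of D0, D1, D7, D14 or D28 (up to 0.14), among them D0 replicates 2 and 4. With library totals miR-195a-5p at D14 stood at -0.33 (adjusted p = 0.18), and miR-497a-5p at D1 and D7 at -0.41 and -0.53 (adjusted p = 0.21 and 0.095), none of which passed. Other marker lists moved in the same libraries. The leukocyte sum went from 7359 to 12340 at D0 to 14600 to 21970 at D3, the endothelial sum from 50600 to 122100 down to 12150 to 21430, the mural sum (miR-143-3p and miR-145a-5p) from 22030 to 42230 down to 3919 to 7280, and the fibroblast sum from 3931 to 5678 down to 2071 to 2820 and up to 11500 to 20430 at D28. No endothelial, mural or leukocyte marker was at 0 in HCs. The part of these cells in the changes was not tested, and fewer cells of a type and less RNA per cell cannot be told apart in pooled samples.

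In FBs, miR-15b-5p rose early and the other 5p members fell at D7 and D14. MiR-15b-5p was at 36.7, 23.9, 64.8 and 57.7 CPM at D0 and at 130, 141, 93.7 and 89.3 at D3, with no overlap. It rose by 0.82 at D1 and by 1.29 at D3 (SE 0.23, adjusted p = 6.5e-05), and miR-15b-3p rose by 0.96 at D3. At D7 and D14 neither passed the test, with changes of -0.13 and 0.07 in miR-15b-5p (adjusted p = 0.68 and 0.87). At D7 miR-15a-5p, miR-497a-5p, miR-195a-5p and miR-16-5p fell by 1.78, 1.10, 0.95 and 0.90, which is 4 of 6 members lower against 21.1% of miRNAs lower. MiR-16-5p was at 1056, 898, 1504 and 1409 CPM at D0 and at 610, 710, 693 and 602 at D7, all below D0 (adjusted p = 0.00023). MiR-195a-5p was at 849, 788, 1123 and 1025 at D0 and at 450, 587, 545 and 382 at D7, again with no overlap. At D14 the same 4 fell by 1.92, 0.89, 0.90 and 0.58. The groups overlapped in miR-15a-5p on both days, through the low D0 replicate 2, and in miR-497a-5p at D14.

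By D28 no member of the family was called in FBs. At that day 0 of 6 passed in edgeR and in DESeq2, 1 had an unadjusted p under 0.05, and 6.75% of all miRNAs were called. MiR-16-5p was back at 1293, 1237, 1081 and 1014 CPM, and miR-195a-5p at 955, 988, 820 and 729. From D3 to D28 miR-15b-5p fell by 1.09 and miR-195a-5p was higher by 0.48, 2 of 6 against 41.6%. The latter and the fall of miR-195a-5p at D3 (-0.60) did not pass with library totals (0.02 and -0.27), and the D3 to D28 rise was lost without any of 8 libraries, with adjusted p up to 0.22.

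All 6 members changed over the days in FBs (background 68.2%), with 1, 3, 4, 4 and 0 calls from D1 to D28 (backgrounds 7.99%, 43.0%, 45.6%, 24.7% and the 6.75% above). FB D0 replicate 2 stood low, with 7.46 CPM of miR-15a-5p against 53.9 to 110 in the other 3, and without it miR-15a-5p fell by 2.06 at D7 and by 2.15 at D14. Of 12 calls, 8 held without any 1 library. Those lost were miR-15b-5p at D1 (adjusted p = 0.053 without FB D0 replicate 2, 0.11 without D0 replicate 1, 0.054 and 0.089 without D1 replicates 3 and 4), miR-195a-5p at D3 (0.098 without D3 replicate 2), and miR-16-5p and miR-497a-5p at D14 (0.085 and 0.062 without D0 replicate 3). MiR-16-5p at D14 was also lost without D0 replicate 4, D14 replicate 3 or D28 replicates 2, 3 or 4 (0.06 to 0.075). The fibroblast sum was 44810 to 71220 at D0 and 45310 to 55460 at D7, and the leukocyte sum 238 to 258 and 93.6 to 136. Their part in the changes was not tested.

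In ECs few changes passed before D28, when miR-15a-5p and miR-16-5p were lower. MiR-16-5p was at 1400, 1238, 1545 and 1509 CPM at D0 and at 969, 456, 210 and 523 at D28. All D28 libraries lay below D0, and the fall was 1.40 (SE 0.32, adjusted p = 0.00079), to a level 2.64-fold lower. MiR-15a-5p was at 113, 66.9, 67.1 and 50.3 at D0 and at 48.6, 14.4, 1.42 and 6.80 at D28, a fall by 2.26 (adjusted p = 0.0026) that rests on 28, 21, 1 and 19 counts at D28. MiR-195a-5p was lower by -0.68 (adjusted p = 0.043), with overlap, and miR-497a-5p by -0.72 (adjusted p = 0.061). MiR-15b-3p rose by 1.15 at D3 (adjusted p = 0.023), from 13.6, 5.77, 9.27 and 10.9 to 21.4, 21.5, 23.5 and 19.7 CPM, with no overlap.

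Against D3, 4 members had fallen by D28 in ECs, miR-15a-5p by 1.95, miR-16-5p by 1.74, miR-15b-3p by 1.07 and miR-15b-5p by 0.87, where 27.6% of miRNAs were lower and 49.9% called in either direction. Against D0, 0, 1, 0, 0 and 3 of 6 were called from D1 to D28, with backgrounds of 0%, 17.6%, 22.6%, 14.5% and 47.0%. At D1, D7 and D14, the numbers with an unadjusted p under 0.05 were 0, 2 and 1, and DESeq2 called 0, 1 and 1. Over all days 4 of 6 changed (58.2%), of which miR-15b-5p and miR-15b-3p only just (adjusted p = 0.044 and 0.045). The D28 values turn on single libraries. EC D28 replicate 1 stood above the other 3 in these members, and without it miR-16-5p fell by 2.03, miR-15a-5p by 3.38 and miR-497a-5p by 1.41 (adjusted p = 0.00011). Without replicate 3, the lowest, miR-16-5p fell by 1.14 and miR-15a-5p by 1.94, which still passed, and miR-195a-5p by 0.49, which did not (adjusted p = 0.13). The call of miR-195a-5p was also lost without D0 replicates 1, 3 or 4, D28 replicate 2 or D3 replicate 2 (adjusted p = 0.05 to 0.11), and that of miR-15b-3p at D3 without D0 replicates 2 or 3 or D3 replicates 1 or 2 (0.051 to 0.11). From D3 to D28, miR-15b-3p was lost without D28 replicate 3 (0.074) and miR-15b-5p without D28 replicate 4 (0.063). Over all days miR-15a-5p was lost without D28 replicate 4 (0.056), and the miR-15b arms without any of several libraries of D0 to D28 (up to 0.1). Marker sums spread widely at D28. The mural sum was 25200 to 127700 at D28 and 52630 to 71260 at D0, and the endothelial sum 129800 to 204600 and 177000 to 247400, and their part was not tested.

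In CMs all 6 members rose after infarction, and the size of the rise differed widely between them. At D14, miR-15a-5p was at 86.1, 61.3, 62.1 and 74.8 CPM, where D0 held 10.4, 1.96, 1.39 and 2.57. The groups were far apart, and the change was 4.16 (log2, SE 0.69, adjusted p = 1.9e-05), 17.9-fold. MiR-497a-5p went from 11.3, 0.735, 1.98 and 2.14 at D0 to 65.6, 63.2, 65.5 and 59.4 at D14, a rise of 4.02 (SE 0.69). The miR-15b arms rose by 2.80 (5p) and 2.66 (3p). MiR-16-5p was at 322, 158, 129 and 123 at D0 and at 656, 560, 563 and 630 at D14, a rise of 1.72 or 3.30-fold. MiR-195a-5p changed least, from 34.4, 19.4, 19.8 and 17.8 to 49.3, 36, 34.6 and 50.6, a rise of 0.90 (adjusted p = 0.0015).

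These D0 levels rest on few reads. The 4 D0 libraries held 37, 8, 7 and 12 counts of miR-15a-5p, 40, 3, 10 and 10 of miR-497a-5p, 24, 8, 8 and 9 of miR-15b-5p, and 3, 4, 3 and 5 of miR-15b-3p, against 572 to 1141 of miR-16-5p and 79 to 122 of miR-195a-5p. CM D0 replicate 1 stood above the rest for the 5p members, and without it the D14 rises were larger, 5.13 for miR-15a-5p, 5.21 for miR-497a-5p, 3.46 for miR-15b-5p, 2.09 for miR-16-5p and 1.11 for miR-195a-5p. All 6 members then passed on every day, miR-195a-5p at D3 with 0.60 (adjusted p = 0.02). With all libraries its changes at D1, D3 and D7 were 0.36, 0.42 and 0.36, close to the median of all miRNAs on those days, and did not pass.

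The rise built up over days. Calls numbered 2 of 6 at D1, 5 at D3 and at D7, and 6 at D14 and at D28 (backgrounds 25.0%, 55.2%, 69.0%, 67.1% and 54.3%), and at D14 38.0% of all miRNAs were higher. Over all days 6 of 6 changed against 73.8%. MiR-15a-5p rose by 2.10 at D3, 3.94 at D7 and 3.13 at D28, and miR-497a-5p by 2.66, 3.57 and 3.00. At D28 replicate 1 was low, with 7.59 CPM of miR-15a-5p against 25.1 to 58.3 in the other 3. Between D3 and D28 0 of 6 members were called in edgeR and in DESeq2, 1 had an unadjusted p under 0.05, and the background was 6.40%. With library totals as the scaling all 30 member and day comparisons passed, and at D14 the values were 6.72 for miR-15a-5p, 6.57 for miR-497a-5p, 4.31 for miR-16-5p and 3.49 for miR-195a-5p, where the median miRNA stood at 2.99. Of 24 calls, 21 held without any 1 library, and those lost were miR-16-5p and miR-15b-3p at D1 (adjusted p = 0.15 and 0.063 without D1 replicate 3) and miR-15a-5p at D3 (0.059 without D3 replicate 3). MiR-16-5p at D1 was lost too without D0 replicates 2, 3 or 4, D1 replicate 4, D7 replicates 2, 3 or 4 or any D14 replicate (0.051 to 0.098).

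Other cell types' markers also moved in CM libraries. The fibroblast sum was 108 to 336 at D0 and 693 to 1113 at D14, 1 of its 3 miRNAs being at 0 in a D0 library, the leukocyte sum 40.9 to 224 (1 of its 4 at 0 in a D0 library) and 75.6 to 95.7, the endothelial sum 15300 to 28990 and 9436 to 14100, the mural sum 67170 to 115400 and 8011 to 9764, and the cardiomyocyte sum 1726000 to 2450000 and 158300 to 213900. Their part in the members' rise was not tested. These sums are divided by the TMM factors, which were 0.29 to 0.36 in CM D0 libraries and 1.91 to 2.04 at D14, so they do not compare raw shares. As a share of counts, miR-1a-3p was 60.2% to 70.7% at D0 and 29.2% to 39.9% at D14.

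**Figure D3:**
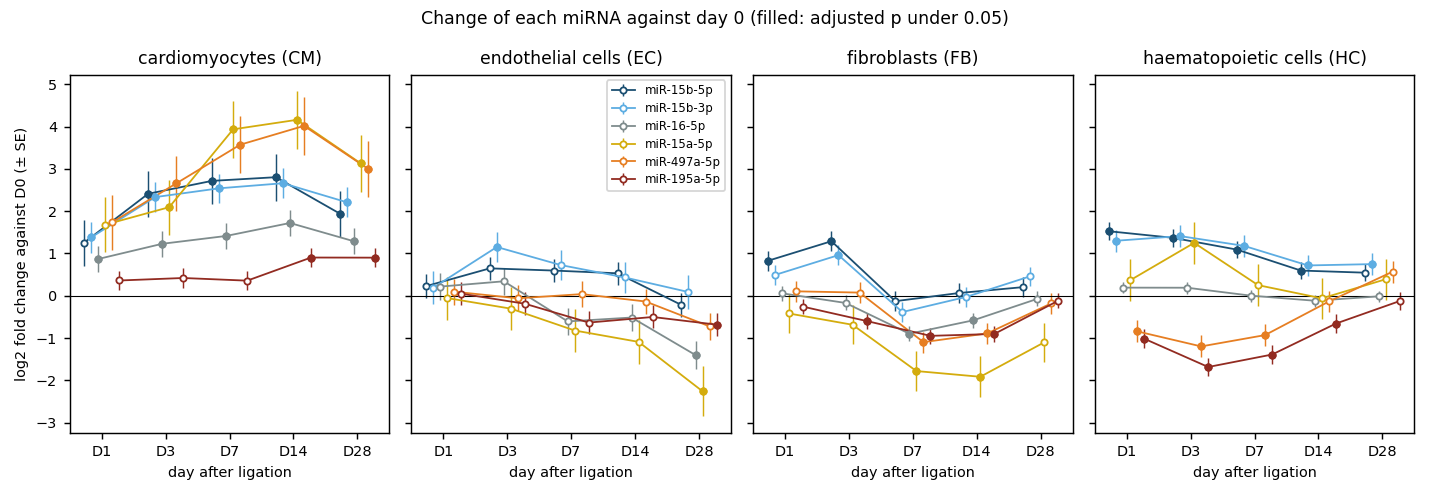
Change of each member from D0 by day in each cell type (log2, TMM scale), with the standard error of the fit as bars and filled points for an adjusted p under 0.05. All 6 members lie above 0 in CMs at D14 (0.90 to 4.16), while in FBs 4 were called lower at D7 (-0.90 to -1.78).

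Whether these courses differ between cell types was tested on the 96 libraries together. The cell type by day interaction passed for 6 of 6 members (background 76.3%), with adjusted p from 9.1e-13 for miR-497a-5p to 1.2e-06 for miR-15b-3p. The change at D7 was higher in CMs than in each other type for 6 of 6 members, by 1.35 to 5.11 over ECs, 1.57 to 6.00 over FBs and 1.73 to 4.90 over HCs (backgrounds 40.4%, 44.2% and 41.0%). MiR-15a-5p had the largest difference against FBs, 6.00 (SE 0.85), and miR-195a-5p differed by 1.57 in the same comparison. Over D1 to D28, 28 of 30 member changes differed between CMs and ECs, 26 of 30 between CMs and FBs and 26 of 30 between CMs and HCs, where 34.6%, 32.5% and 34.5% of all miRNA changes did. The 3 contrasts share the CM libraries. Among the other types 11 of 90 passed, against 14.2% of all miRNA changes, so the members did not stand above the background there, and 9 of the 11 were lost under at least 1 alternative. MiR-195a-5p fell further in HCs than in ECs at D3 (difference 1.36), and miR-16-5p was lower at D28 in ECs than in HCs by -1.74, and these 2 passed under each alternative run. The difference of 1.23 in miR-195a-5p between FBs and HCs at D3 did not pass with library totals (0.88, adjusted p = 0.068).

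The ratio of miR-15b-5p to miR-16-5p was higher after infarction than at D0 in most comparisons, a call that depended on the settings given at the end of the paragraph. The log2 ratio of miR-15b-5p to miR-16-5p counts, which needs no scaling between libraries, was higher than at D0 in 16 of 20 comparisons of a day with D0, with no overlap of the 4 and 4 libraries (exact permutation test, two-sided, p = 0.029, the smallest that 4 against 4 allow, and adjusted p = 0.036 over the 20). In HCs the mean ratio went from -4.30 ± 0.24 at D0 to -3.01 ± 0.25 at D1, in FBs from -4.80 ± 0.31 to -3.27 ± 0.40 at D3, in CMs from -5.99 ± 0.34 to -4.65 ± 0.27 at D7, and in ECs from -5.105 ± 0.074 to -3.804 ± 0.655 at D28. MiR-16-5p has a second source in Dleu2, so this is a ratio of mature products and does not give the balance within the Smc4 cluster. The 4 comparisons that overlapped were CMs and ECs at D1 and CMs and FBs at D28. All comparisons of a cell type share its 4 D0 libraries. In HC D0 replicate 3 the ratio rests on 3 counts of miR-15b-5p and 71 of miR-16-5p. In the CM D0 libraries it rests on 8 to 24 counts of miR-15b-5p. With a pseudocount of 5, in place of 0.5, 11 comparisons kept apart and 0 passed (lowest adjusted p = 0.052). At the smallest p of 0.029, 11 comparisons apart are too few for any to pass over the 20. Without the libraries farthest from their group in EC D28, FB D0 and HC D0, 16 kept apart and 0 passed, since 3 against 4 cannot go below 0.0571.

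The ratio of miR-195a-5p to miR-497a-5p kept apart from D0 in too few comparisons for any to pass after adjustment. In CMs the log2 ratio was 1.60, 4.51, 3.26 and 2.99 in the D0 libraries, where miR-497a-5p rests on 3 to 40 counts, and -0.15 to -0.97 at D7. The difference was -3.73 with no overlap (exact permutation p = 0.029, adjusted p = 0.095), and no overlap was seen at D3, D14 and D28 either. Of the 20 comparisons, 6 did not overlap and 0 passed after adjustment. With 4 against 4 libraries p cannot go below 0.029, so 6 comparisons apart could not pass over the 20. In FBs, where both are most abundant, the mean ratio stayed between 0.61 and 1.38. For miR-15a-5p against miR-15b-5p, members of different loci, 7 of 20 did not overlap and 0 passed (lowest adjusted p = 0.082), and the same limit holds. In CMs that ratio was 1.56 above D0 at D14, and in ECs 2.51 below D0 at D28.

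**Figure D4:**
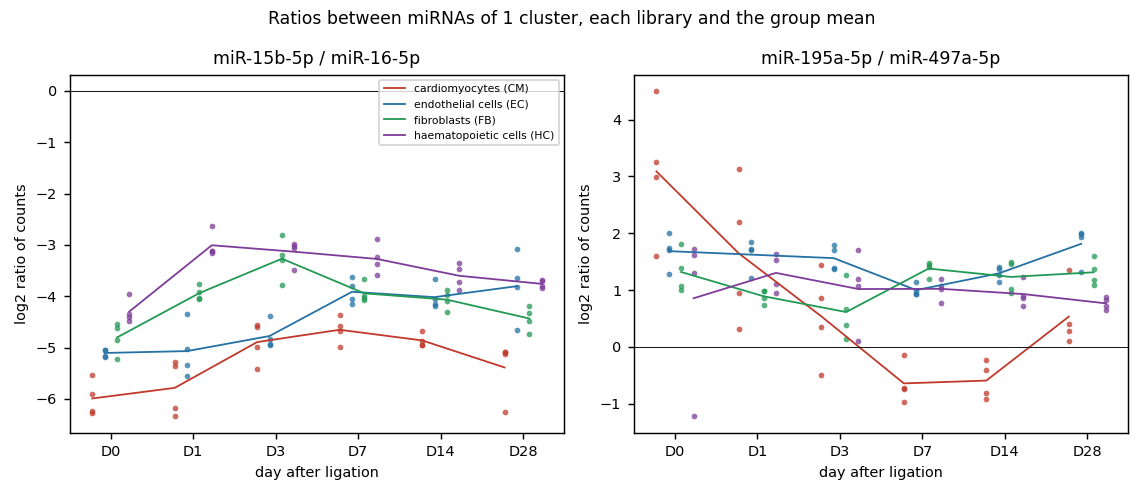
Log2 ratio of counts within a library for miR-15b-5p to miR-16-5p (left) and miR-195a-5p to miR-497a-5p (right), by day, with 1 point per library and lines through the means of 4. The left ratio is above D0 at D7 in every cell type, and the right ratio in CMs goes from a mean of 3.09 at D0 to -0.64 at D7.

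No change in the balance between the arms of the miR-15b hairpin was called. The log2 ratio of 5p to 3p at D0 was 2.16 ± 0.45 in HCs, 2.11 ± 0.52 in ECs, 1.45 ± 0.93 in CMs and 1.31 ± 0.35 in FBs, so the 5p arm led everywhere. Over the days, limma's moderated F test called no cell type, with adjusted p = 0.057 in FBs, 0.34 in HCs, 0.68 in CMs and 0.83 in ECs and an unadjusted p under 0.05 in FBs alone (0.031). Among hairpins with both arms counted, 49.7%, 15.8%, 70.7% and 40.4% were called in the same order. The FB value passed under other settings (adjusted p = 0.036 with at least 50 counts per arm).

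The arms of miR-195a did not move together in CMs. MiR-195a-3p fell by 1.65 at D1, and from D3 onwards by 2.70, 3.37, 3.33 and 3.09, whereas miR-195a-5p rose at D14 and D28 and did not pass on the other days. The log2 ratio of 5p to 3p went from -0.89 ± 1.30 at D0, where 3p led, to 3.21 ± 0.53 at D14, a difference of 4.10 (SE 0.69, limma, adjusted p = 2.8e-05). In ECs the ratio moved the other way at D28, by -1.38 (adjusted p = 0.009), with a spread of -0.72 to 1.96 over the 4 libraries. In FBs the ratio moved from D0 by -0.73 at D7 (adjusted p = 0.023), and in HCs by 0.87 at D3 (adjusted p = 0.0034), as miR-195a-3p fell there by 2.51. The ratio of arms does not depend on scaling, but the fall of miR-195a-3p in CMs was not called with library totals at D1, D3 and D14.

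**Figure D5:**
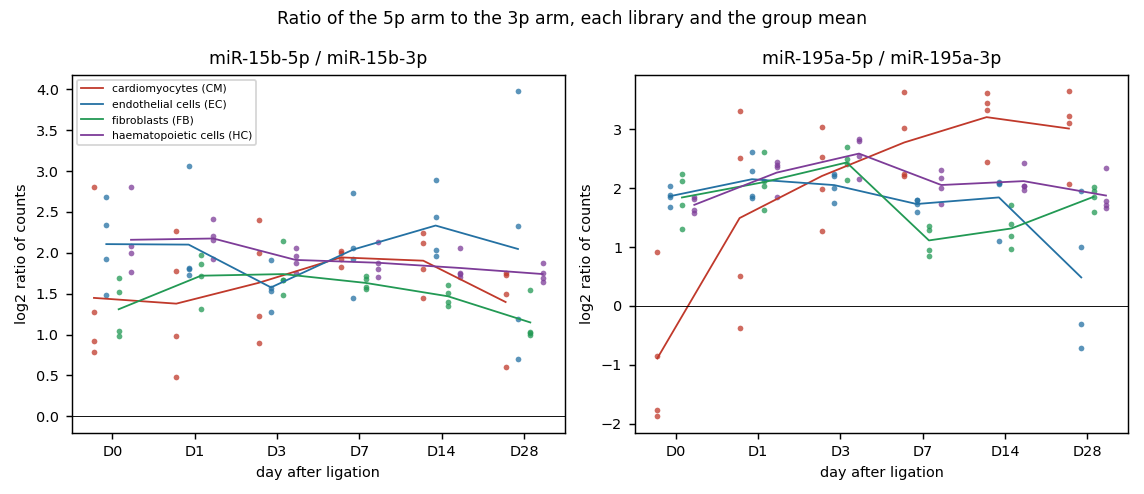
Log2 ratio of 5p to 3p counts within a library for the miR-15b and miR-195a hairpins, by day and cell type, with 1 point per library and lines through the means of 4. The miR-195a ratio in CMs climbs from -0.89 at D0 to 3.21 at D14, and the miR-15b ratio stays above 0 in the means of all groups.

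The other arms of the Mir16-1 and Mir16-2 hairpins each come from 1 locus. Arms of a hairpin can move apart, so they do not give how much miR-16-5p each locus made. MiR-16-2-3p, from the Smc4 locus, rose in HCs by 1.31, 1.51 and 1.24 at D1, D3 and D7, and in CMs by 2.26 at D1 to 2.85 at D7. MiR-16-1-3p, from Dleu2, changed in HCs by 0.41, 0.46 and 0.40 on the same days, and in CMs it was lower at D14 (-1.05), which with library totals was 1.57. MiR-15a-3p, the other arm of miR-15a, rose by 3.84 at D14 in CMs and by 1.25 at D3 in HCs, fell by 1.17 at D7 in FBs, and was too low to be tested in ECs. The 4 CM D0 libraries held only 2, 2, 0 and 1 counts of miR-16-2-3p and 1, 0, 0 and 1 of miR-15a-3p. The size of their rises in CMs is therefore uncertain. MiR-497a-3p was too low in every cell type, with at most 7 counts in a library.

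Relatives by seed were taken as listed miRNAs sharing bases 2 to 7 with miR-16-5p. Of these, miR-322-5p and miR-503-5p, made together from the X chromosome and also known to hold back cyclins, were the only ones with enough counts. MiR-503-5p differs from the members' seed at base 8. In CMs miR-503-5p rose by 2.69 at D3 and 2.77 at D14, and miR-322-5p by 1.69 and 2.07. In FBs they rose at D3 by 1.36 and 0.97 and fell from D3 to D28 by 1.74 and 1.32. In ECs miR-503-5p rose by 0.75 at D3, and miR-322-5p fell by 1.54 at D28. In HCs miR-503-5p rose by 0.58 at D1. MiR-195b, miR-6342, miR-6353 and miR-6419 were too low to be tested, with miR-6342 and miR-6419 at 0 in all libraries.

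Across the 24 group means of log2 CPM, the miRNAs most like each member were ranked among the 706 that are not members, and the coefficients are a description, since points of 1 cell type share their library preparation. MiR-16-5p was most like miR-19a-3p (Spearman's rho 0.93), miR-425-5p and miR-17-3p. MiR-15b-5p was most like miR-18a-5p (0.92), miR-106a-5p and miR-17-5p, and miR-15b-3p most like miR-421-3p (0.93), miR-222-3p and miR-532-3p. MiR-15a-5p was most like miR-106b-5p (0.87), miR-19b-3p and miR-339-5p. MiR-195a-5p was most like miR-152-3p (0.95), miR-598-3p and let-7b-5p, and miR-497a-5p most like miR-154-5p (0.97), miR-329-5p and miR-369-3p. Among the members themselves, rho was 0.92 between the miR-15b arms, 0.90 between miR-195a-5p and miR-497a-5p, 0.89 between miR-15a-5p and miR-16-5p, 0.74 between miR-15b-5p and miR-16-5p, and -0.44 between miR-16-5p and miR-195a-5p.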

How the data were processed

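The authors deposited whole-number read counts per mature miRNA for 96 libraries, not normalized, made with Trim Galore, Bowtie2 and SAMtools per the submitters' processing notes, which name mm10. Versions, and how reads matching several miRNAs were placed, are not given in the sources used here. The authors left out 1 replicate each of EC D28, FB D0 and HC D0 without naming it, and all 96 libraries were used here. Groups were taken from the labels. Members and lists were chosen with earlier results of these data known. The miRNAs named were the members, the other arms of their hairpins, listed miRNAs sharing bases 2 to 7 with miR-16-5p, and the 3 most alike in rank correlation. Each cell type was fitted alone in R 4.3.3 with edgeR 4.0.16 (TMM, filterByExpr, quasi-likelihood, 1 term per day), leaving 608 miRNAs for HCs, 563 for FBs, 484 for CMs and 421 for ECs. A fit of all 96 libraries (712 miRNAs) gave differences between cell types. The study calls its replicates biological in one place and technical in another, so the spread may be partly technical, and cell types of a day came from the same animals, a dependence that the 96-library fit does not model. Ratios within a library took a pseudocount of 0.5, tested with scipy 1.17.1 (exact permutation) or limma 3.58.1 (hairpins with at least 10 counts per arm on average). Alternatives were library totals as scaling, DESeq2 1.42.0, no filter on low counts, each pair of days alone, a replicate block, and leaving out libraries. Scripts were tested on simulated data. Unmatched reads, 25.6% to 83.0% of a library, stayed out of totals. No libraries held identical tables.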

Additional observations from a re-analysis of the deposited data

Results flagged for a closer look

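In 17 of 144 groups of 4 libraries, 1 library lay far from the other 3 by Dixon's criterion, which chance alone meets in about 1 in 20 groups. CM D0 replicate 1 did so for 4 members, at 10.43 CPM of miR-15a-5p, 6.766 of miR-15b-5p, 34.4 of miR-195a-5p and 11.28 of miR-497a-5p, each the highest of its group. HC D0 replicate 3, the shallowest library, stood high at 856.8 of miR-15a-5p and 151.2 of miR-497a-5p. EC D14 replicate 4 stood low at 506.1 of miR-16-5p, 147.2 of miR-195a-5p and 66.77 of miR-497a-5p. The others were single: for miR-15a-5p FB D3 replicate 1 (82.38) and FB D28 replicate 4 (18.62), for miR-15b-5p EC D7 replicate 2 (79.1), HC D0 replicate 1 (188.6), HC D7 replicate 2 (525.7) and HC D28 replicate 4 (279.5), for miR-15b-3p CM D14 replicate 2 (6.985), and for miR-497a-5p CM D7 replicate 1 (31.05).

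The course over days differed between cell types for each member by the interaction test of edgeR, with adjusted p of 1e-07 for miR-15b-5p, 1.2e-06 for miR-15b-3p, 1.2e-09 for miR-195a-5p, 2.3e-09 for miR-15a-5p, 3.1e-10 for miR-16-5p and 9.1e-13 for miR-497a-5p. Of 30 member and day comparisons each, the change in CMs differed from that in ECs in 28, from FBs in 26 and from HCs in 26, with backgrounds of 34.6%, 32.5% and 34.5% of miRNA changes. Among the other cell types 11 of 90 passed (background 14.2%). Of these, 9 did not pass under at least 1 alternative, and the other 2 were miR-195a-5p at D3 and miR-16-5p at D28, both between ECs and HCs. The differences of miR-195a-5p between ECs and HCs at D1, and of miR-195a-5p at D1 and miR-497a-5p at D3 between FBs and HCs, were lost under 8, 7 and 7 settings. MiR-16-5p changed by -1.50 in ECs relative to FBs at D28. ECs relative to HCs gave -1.38 in miR-15b-5p and 0.97 in miR-195a-5p at D1, 1.36 in miR-195a-5p at D3, and -2.78 in miR-15a-5p, -1.74 in miR-16-5p and -1.57 in miR-497a-5p at D28. FBs relative to HCs gave 0.96 in miR-195a-5p at D1, 1.23 in miR-195a-5p and 1.44 in miR-497a-5p at D3, and -1.43 in miR-15b-3p at D7.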

How the results depend on the processing

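Of 753 values of single members under the alternatives, 662 kept their direction and side of the threshold, 72 fell short of it, 14 newly passed and 5 reversed. The 5 were differences of CMs under library totals: miR-15a-5p against ECs (-0.86) and FBs (-0.43), miR-16-5p against FBs (-1.30), and miR-195a-5p (-1.74) and miR-497a-5p (-1.14) against HCs. In ECs, 4 members changed over days, 2 with a replicate block and 2 to 6 when 1 library was left out, and 4 day calls became 7 with DESeq2, 8 with the days fitted alone and 2 to 7 with 1 library left out. In FBs the 2 calls from D3 to D28 became 1 without a filter and 1 to 3 with 1 library left out. The miR-15b arm ratio in FBs at D3 stood at 0.43 with 50 counts per arm and with a replicate block, where its test over days passed (adjusted p = 0.036). The 16 calls of the miR-15b-5p to miR-16-5p ratio became 0 with a pseudocount of 5, where 11 comparisons kept apart, too few for any to pass. They also became 0 without the libraries farthest from their group, where fewer libraries raise the smallest p. For the rest the cause was not tested. Leaving out 1 library gave 22 to 30 day calls in CMs, 10 to 13 in FBs and 12 to 20 in HCs, where 24, 12 and 17 were called. Replicate numbers showed no sign of pairing libraries. Deviations of same-numbered libraries had a median correlation of 0.021 over 144 pairs of cell types on 1 day, 23 of them over 0.1. Over 240 pairs of days, which are different mice, the median was 0.0097. Such values cannot exclude a pairing by number. The replicate block gave 23 calls in CMs. With the days fitted alone, miR-15b-3p in CMs at D1 did not pass the filter on low counts and was not tested. Low counts limit CM D0 and EC D28.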
